A study of Mus musculus with 115 samples.

Results

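The seminal vesicle secretory protein genes Svs1, Svs2, Svs3a, Svs3b, Svs4, Svs5, Svs6 and Pate4 were followed by name through the table of deposited values, 8 of 45699 genes. RNA was sequenced from the prostate tissue of (TRAMP x WSB/EiJ) F2 males, and the libraries, each with a label of its own, form 1 group. All of these mice were labelled transgene positive, meaning that they carried the TRAMP transgene, in which SV40 T antigen is driven by a minimal probasin promoter active in prostate epithelium. The other parent, WSB/EiJ, is an inbred strain derived from wild mice, and each F2 mouse carries its own mixture of both parental genomes. The labels describe the samples as bulk tumor, by the study's methods small prostates were sampled from the ventral lobe, and no age, genotype or tumor size of a mouse entered the comparisons.

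The seminal vesicles are paired androgen-dependent glands that empty into the urethra beside the prostate. They grow from the Wolffian duct, whereas the prostate grows from the urogenital sinus. Their epithelium secretes a small set of proteins at very high levels, and in rodents these proteins form most of the copulatory plug after the prostate enzyme transglutaminase 4 (Tgm4) cross-links them. Svs2 is the main clotting protein and the mouse counterpart of human semenogelin. Svs3a, Svs3b, Svs4, Svs5 and Svs6 are members of the same fast-evolving family, Svs1 is related to copper amine oxidases, and Pate4, also called SVS7, is a small Ly6-like protein that binds to sperm.

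In the GENCODE M21 annotation of GRCm38, 6 of the 8 genes lie side by side on chromosome 2. From the proximal end they are Svs2 (164235929 to 164238466, minus strand), Svs3b (164254363 to 164256640, minus), Svs4 (164275952 to 164278459, minus), Svs3a (164289268 to 164291500, plus), Svs6 (164316751 to 164318453, plus) and Svs5 (164332740 to 164334396, plus). The cluster spans 98.5 kb and holds 0 other protein-coding genes. Svs1 lies on chromosome 6 from 48986861 to 48991722 and Pate4 on chromosome 9 from 35607093 to 35611941. All 8 are protein-coding.

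The start regions of 7 of the genes were read from RefSeq on GRCm38.p6, as 250 bases before and 50 after the annotated start. Pate4 was not matched. There were 2 pairs of nearly identical start regions, and they are shown because the genes of the second pair were high in the same libraries and those of the first often were not. In each line the 250 bases before the start are given 5′ to 3′ on the strand of the gene, and capitals mark the bases that differ from the other gene of the pair. The first pair is Svs5 (chr2:164332515-164332764, plus strand) and Svs6 (chr2:164316501-164316750, plus strand), and the last 25 bases of the Svs5 line lie inside the gene as GENCODE places it.
Svs5: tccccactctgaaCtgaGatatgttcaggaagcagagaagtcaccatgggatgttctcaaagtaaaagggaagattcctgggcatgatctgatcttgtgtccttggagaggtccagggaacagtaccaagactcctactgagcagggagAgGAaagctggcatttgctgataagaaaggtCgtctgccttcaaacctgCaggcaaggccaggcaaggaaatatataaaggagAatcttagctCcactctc
Svs6: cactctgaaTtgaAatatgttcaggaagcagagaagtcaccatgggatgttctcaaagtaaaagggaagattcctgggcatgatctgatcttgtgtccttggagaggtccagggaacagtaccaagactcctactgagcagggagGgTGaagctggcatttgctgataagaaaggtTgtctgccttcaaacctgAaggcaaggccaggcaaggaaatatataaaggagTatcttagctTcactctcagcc
The second pair is Svs3a (chr2:164289017-164289266, plus strand) and Svs3b (chr2:164256644-164256893, minus strand).
Svs3a: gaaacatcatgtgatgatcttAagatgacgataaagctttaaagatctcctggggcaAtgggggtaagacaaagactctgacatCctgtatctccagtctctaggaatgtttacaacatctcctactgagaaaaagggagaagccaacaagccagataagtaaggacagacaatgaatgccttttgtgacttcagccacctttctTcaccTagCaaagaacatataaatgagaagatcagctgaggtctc
Svs3b: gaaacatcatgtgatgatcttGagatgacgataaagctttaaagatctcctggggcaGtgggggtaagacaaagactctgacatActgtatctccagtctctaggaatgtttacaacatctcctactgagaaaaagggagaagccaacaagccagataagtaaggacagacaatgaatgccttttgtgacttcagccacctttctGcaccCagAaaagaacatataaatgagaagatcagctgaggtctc
The start regions of Svs5 and Svs6 were 96.3% identical over 296 aligned bases, with 11 mismatches and no gap. Those of Svs3a and Svs3b were 97.7% identical over 300 bases, with 7 mismatches. Among the other 19 pairs of start regions, a BLAST search found shorter matches for 4, of Svs4 with Svs5 (69.1% over 149 bases) and with Svs6 (74.7% over 83 bases), and of Svs5 with Svs3a (73.2% over 82 bases) and with Svs3b (74.4% over 82 bases). Svs1 and Svs2 had no match to any of the others. RefSeq and GENCODE place the starts of Svs2 and Svs4 apart, and the start regions read for these genes overlap GENCODE transcripts. Their matches and the positions of letters in them hold for the RefSeq start only. The letters TATAAA, searched on both strands, stood in 6 of the 7 start regions against 13.6% of all 32544, and in Svs3a, Svs3b, Svs4 and Svs5 they began 28 bases before the start, in Svs6 32. The letters AGAACA, an arm of the androgen response element, stood on either strand in Svs1, Svs3a, Svs3b, Svs5 and Svs6 and in 18.9% of all start regions. The full element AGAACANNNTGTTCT was in 0 of the 7 and in 3 of all 32544.

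The transcripts of Svs3a and Svs3b were 97.8% identical over 1034 bases, 86.5% of the longest Svs3a transcript. The division of reads between Svs3a and Svs3b is therefore uncertain, and values of one cannot be taken as independent of the other. No other gene of the 8 had a near-identical copy at 95% identity over 80% of its transcript. The longest single match between the transcripts of Svs5 and Svs6 covered 16.9% of the Svs5 transcript, at 85.8% identity. Shorter matches between them were not counted.

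Values are in TPM (transcripts of a gene per fixed total of transcripts), a share of each library that is corrected for gene length, so that levels can be set beside each other between genes. TPM keeps no sequencing depth, and the depth behind each value is unknown. On the first principal component, which held 48.7% of the variance of the 14623 genes averaging 1 TPM or more, the libraries separated into sets of 79 and 36. Correlations were therefore computed within the 79, and those of the 36 are given beside them. In bulk tissue, fewer cells of a type and less RNA per cell cannot be told apart. The p-values given here compare each correlation with those found after the values of 1 gene were shuffled between libraries.

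The 8 genes ranged from undetected to among the most abundant RNAs of a library. Svs4, a small androgen-dependent secretory protein, ran from 0.13 TPM through a median of 17.2 to 90520 TPM. Svs5 ran from 0.44 through 26.04 to 63656 TPM, and Svs2 from 0.20 through 8.81 to 18141 TPM. The sperm-binding Pate4 ran from 0.10 through 5.94 to 12335 TPM. All 4 were above 0 in every library.

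The other 4 genes had lower medians, and each was at 0 in some libraries and reached over 1000 TPM at its highest. Svs6 had a lowest value of 0, a median of 1.53 and a highest value of 17069 TPM, and it was at 0 in 7 libraries. Svs3a had a median of 0.26 TPM, a highest value of 3189 TPM and 13 libraries at 0. Svs3b had a median of 0.14 TPM, a highest value of 1351 TPM and 25 libraries at 0. Svs1, the amine oxidase relative, had a median of 0.14 TPM, a highest value of 4492.08 TPM and 3 libraries at 0. Mean and SD describe none of the 8 well, since the SD exceeded the mean in each (for Svs2, 1572 ± 3583 TPM over all libraries).

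By median level the order was Svs5, Svs4, Svs2, Pate4, Svs6, Svs3a, Svs3b and Svs1, and the interquartile ranges of all neighbours in this order overlapped. Within libraries the order was steadier for some pairs than for others. Svs2 was above Pate4 in 99 libraries of the 79 and 36 and Svs6 above Svs3a in 100, whereas Svs5 was above Svs4 in 75 and Svs4 above Svs2 in 67. Svs1 was above Svs3b in 77 libraries although its median was no higher. A gene was counted as detected when no fewer than 50% of libraries had it at 1 TPM or above, and 5 of the 8 genes were (Svs2, Svs4, Svs5, Svs6 and Pate4), against 27.8% of all genes.

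**Figure D1:**
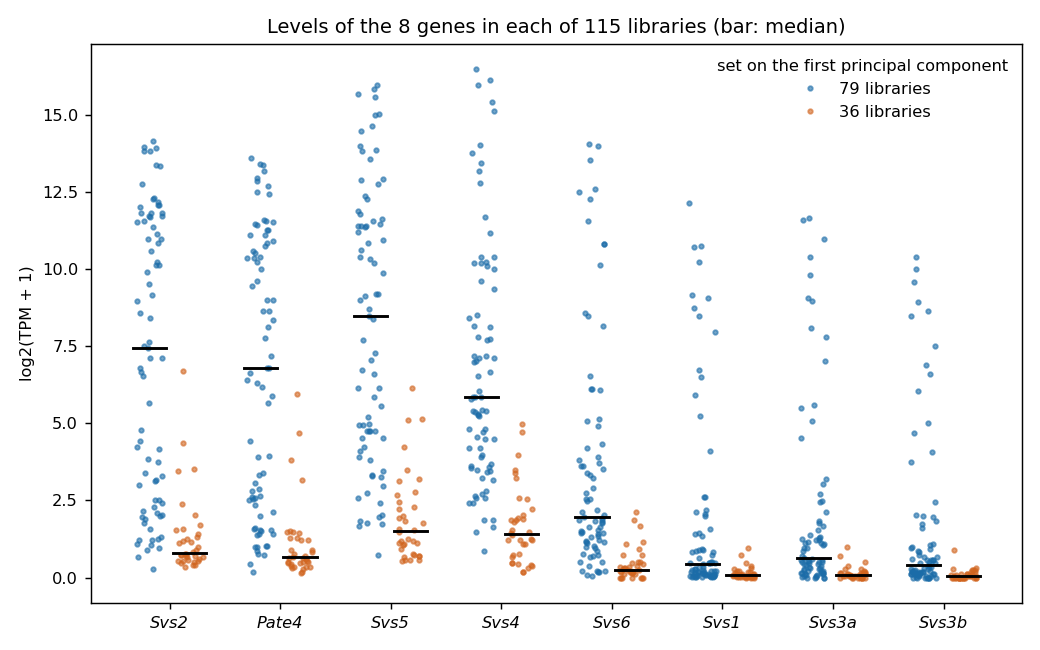
Level of each gene on the log2(TPM + 1) scale (vertical axis) in every library, as 1 point a library, with the set of 79 libraries in blue and the set of 36 in orange and a black bar at the median of each set. Svs2, Pate4 and Svs5 are spread over the whole range in the 79 libraries, whereas Svs1, Svs3a and Svs3b lie near 0 in most and are high in a few.

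Together the 8 genes held between 0.000149% and 17.3% of the TPM of a library, with a median of 0.00757%. They held over 1% in 17 libraries and over 10% in 3, all among the 79. The highest share was in library W4434, where Svs4 was at 90520 TPM, Svs5 at 48947, Svs6 at 11735 and Svs2 at 10270. Ranked by TPM within a library, Svs5 was among the 10 highest genes in 19 libraries, Svs2 in 12 and Svs4 in 10, and the best rank of any of the 8 was 4.

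Few genes varied as much. Over the 79 libraries the SD of log2(TPM + 1) was 4.55 for Svs2, 4.40 for Svs5, 4.39 for Pate4, 3.96 for Svs4, 3.83 for Svs6, 3.18 for Svs1, 3.14 for Svs3a and 2.78 for Svs3b, against a median of 0.44 over all tested genes. Only 2 of 14623 genes had a larger SD than Svs2 there. In the 36 libraries the genes were low, with Svs1 no higher than 0.92 TPM, Svs3b 0.85, Svs3a 1 and Svs6 3.36. The highest values in the 36 were 102.01 TPM for Svs2, 69.8 for Svs5 and 60.3 for Pate4, all in library W4517, and 30.6 for Svs4.

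The genes did not rise together as 1 block. At 100 TPM or more, 68 libraries held 0 of the 8 genes, 22 held 4 and 8 held all 8. Svs2 and Svs5 reached 100 TPM in 45 libraries each, Pate4 in 40 and Svs4 in 35. Svs6 reached it in 13, Svs1 and Svs3a in 10 and Svs3b in 8. All 10 libraries with Svs1 at 100 TPM or more also had Svs2, Svs3a, Svs4, Svs5, Svs6 and Pate4 there. The reverse was not the case: of the 45 libraries with Svs2 at 100 TPM or more, 10 had Svs1 there and 27 had Svs1 under 1 TPM.

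Single libraries show this pattern plainly. Library W4492 had the highest Svs2 (18141 TPM) and the highest Pate4 (12335 TPM), with Svs5 at 33349, yet Svs6 was at 33.9, Svs3a at 1.32, Svs3b at 0.81 and Svs1 at 0.55 TPM. Library W4351 had a similar Svs2 (15366 TPM) and Pate4 (9174 TPM), but there Svs1 was at 4492.08, Svs3a at 3054, Svs3b at 1351 and Svs6 at 16311 TPM. Svs4 stood between, at 2302 TPM in W4492 and 64086 TPM in W4351. Libraries W4226 and W4360 had Svs2 at 14418 and 16001 TPM with Svs1 at 0.67 and 0.43 TPM, like W4492. Libraries W4065, W4429 and W4173 had Svs1 at 1692, 1188 and 575 TPM beside Svs2 at 6853, 3603 and 3386 TPM, like W4351.

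**Figure D2:**
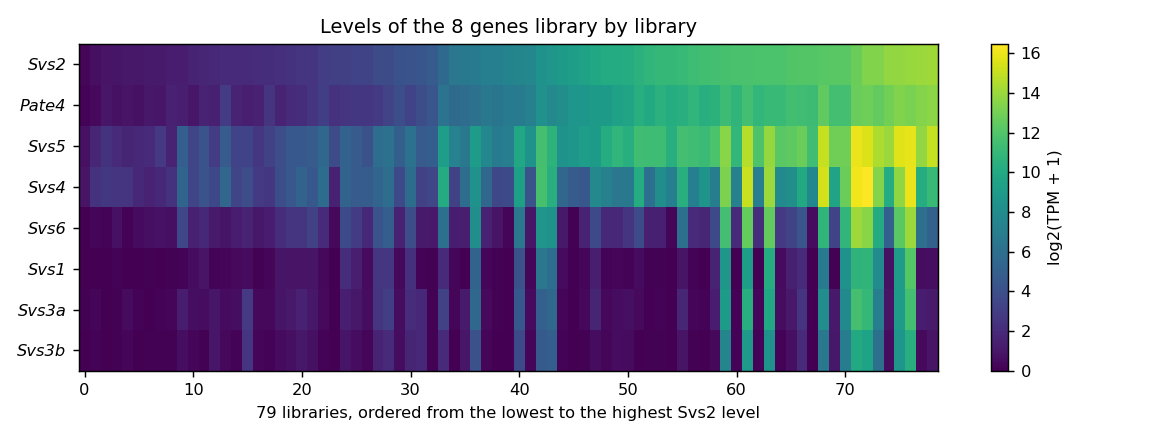
Level of each gene (rows) on the log2(TPM + 1) scale in the 79 libraries (columns), ordered from the lowest to the highest Svs2 and coloured from dark (low) to yellow (high). Pate4 and Svs5 follow the order of Svs2 from left to right, whereas Svs6, Svs1, Svs3a and Svs3b are bright in the same scattered columns.

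Within the 79 libraries 5 of the 8 genes met the rule for a low and a high mode. The rule sets 2 normal distributions against 1, so values piled near 0 with a long upper tail can meet it without 2 modes. Svs3a and Svs3b, with medians of 0.56 and 0.32 TPM in the 79, are open to this. Svs2 and Pate4, on chromosomes 2 and 9, divided the libraries identically into 33 low and 46 high, with the same call in 79 of 79. For Svs2 the low libraries reached 26.4 TPM and the high ones began at 48.9, and for Pate4 the low ones reached 20.3 and the high ones began at 49.6. Svs6 (59 low and 20 high), Svs3a (59 and 20) and Svs3b (58 and 21) divided them elsewhere. For Svs3a the low libraries reached 2.59 TPM and the high ones began at 3.33, and for Svs3b 1.12 and 2.07. Svs3a and Svs3b met the rule narrowly, with Ashman D at 2.22 and 2.06 where more than 2 was required. Svs3a and Svs3b made the same call in 78 of 79, Svs3a and Svs6 in 71, and Svs2 and Svs3a in 45. Svs1, Svs4 and Svs5 did not meet the rule for separate modes, and Svs5 missed it narrowly, with a cut in BIC of 9.65 where more than 10 was required. Where a gene had 2 modes, a correlation over all 79 libraries partly reflects the step between them, so r within each mode is given as well.

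All 28 pairs of the 8 genes were positively correlated over the 79 libraries on the log2(TPM + 1) scale (permutation test of Pearson's r, two-sided, with Benjamini-Hochberg adjustment across the 116940 pairings of 1 of the 8 genes with a tested gene). Of the 116940 pairings, 1.25% passed in either direction and 1.08% as positive. All 28 also passed by Spearman's rho, by which 1.9% of pairings passed as positive. The p-value was 1e-05, the smallest the permutations can give, for 23 of the 28 by r, and the largest was 3e-05. What differed was the size of r, which ran from 0.446 to 0.997.

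Svs2, Svs5 and Pate4 were the closest companions of each other. Svs2 and Pate4 had r = 0.997 and rho = 0.992 over the 79 libraries, r = 0.944 within the 33 low libraries and r = 0.989 within the 46 high ones. Svs2 and Svs5 had r = 0.970 and rho = 0.971, with r = 0.827 and 0.886 within the same 33 and 46. Svs5 and Pate4 had r = 0.977 and rho = 0.976, with 0.821 and 0.923. All 3 passed within the 46, where 0.792% of pairings were positively correlated, and 0 pairings passed within the 33 (0%). When the 2 libraries most distant from the median level of the first gene were left out, these 3 values of r were 0.997, 0.969 and 0.977.

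Svs1, Svs3a, Svs3b and Svs6 formed the other close group. Svs1, on chromosome 6, had r = 0.985 and rho = 0.877 with Svs3a and r = 0.957 and rho = 0.873 with Svs6. Within the 20 libraries with high Svs3a the r of Svs1 with Svs3a was 0.970, and within the 59 with low Svs3a it was 0.650. Within the 20 libraries with high Svs6 the r of Svs1 with Svs6 was 0.968, and within the 59 others 0.771. Svs3a and Svs6 had r = 0.962, with 0.982 and 0.698 within the 20 and 59. Svs3a and Svs3b had r = 0.996, and it is this value that shared reads could raise. All of these within-mode values passed the permutation test, with adjusted p between 0.00582 and 0.0118. The shares of all pairings that were positively correlated were 0.339% and 0.545% for high and low Svs3a and 0.161% and 2.23% for high and low Svs6.

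Across the groups the values of r over the 79 libraries were lower. Svs1 and Svs2 had r = 0.452 and rho = 0.376 there, r = 0.340 (permutation test, adjusted p = 0.323) within the 46 libraries with high Svs2 and r = 0.526 (adjusted p = 0.730) within the 33 with low Svs2. Svs2 with Svs3a and with Svs3b had r = 0.446 in both cases. Within the 46 these values were 0.339 and 0.348 and within the 33 they were 0.489 and 0.502, and none of the 4 passed. Within the 33, 0 of all 116772 pairings passed as positive, and Svs2 with Pate4 at r = 0.944 did not either. Not passing within the 33 therefore does not set these pairs apart. Svs5 and Svs6, the pair with nearly identical start regions, had r = 0.707 and rho = 0.720, with r = 0.426 within the 59 libraries with low Svs6 and 0.640 (adjusted p = 0.121) within the 20 with high Svs6. Svs5 and Svs3a had r = 0.594, with 0.860 within the 20 libraries with high Svs3a and 0.164 within the 59 others. Svs5 and Svs3b had r = 0.588, with 0.872 within the 21 libraries with high Svs3b and 0.151 within the 58 others. The values in the high libraries passed (permutation test, adjusted p = 0.00973 and 0.00878), and those in the low libraries did not. The differences between correlations were not tested. Svs4 lay between the groups, with r = 0.904 with Svs5, 0.906 with Svs6, 0.816 with Svs1 and 0.802 with Svs2.

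**Figure D3:**
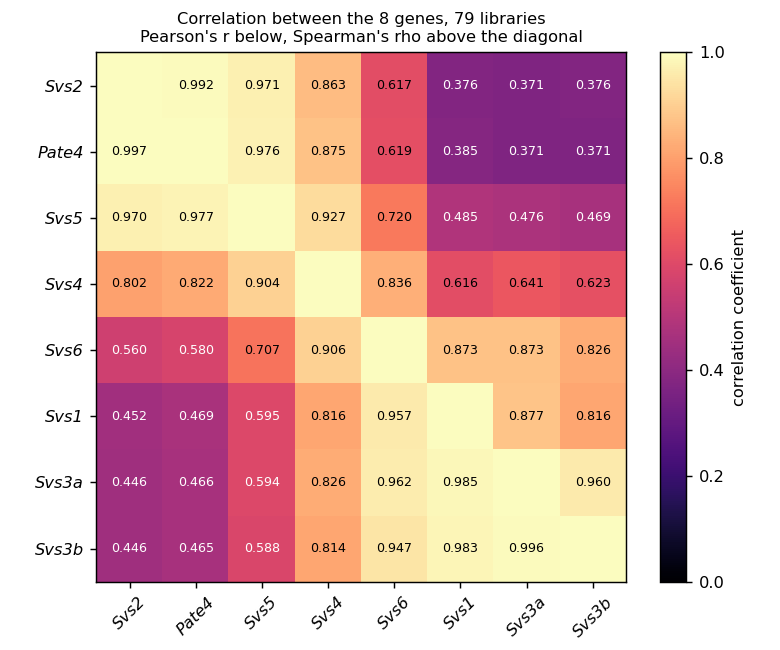
Correlation of each pair of genes over the 79 libraries, with Pearson's r on log2(TPM + 1) below the diagonal and Spearman's rho above it, and the colour giving the same coefficient from 0 (dark) to 1 (light). Svs2, Pate4 and Svs5 form a light block at the top left and Svs6, Svs1, Svs3a and Svs3b another at the bottom right, with Svs4 between.

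Sharing the cluster did not set a pair of genes apart by r. The 15 pairs with both genes in the chromosome 2 cluster had a median r of 0.814 (0.446 to 0.996), and the 13 pairs on different chromosomes had a median r of 0.816 (0.452 to 0.997). By rho the medians were 0.720 and 0.619, and the difference between the 2 kinds of pair was not tested. The closest partner of the chromosome 2 gene Svs2, by rho over all tested genes, was Pate4 on chromosome 9, at rho = 0.992. The closest partner of Svs6 was Svs1 on chromosome 6, at rho = 0.873, hardly apart from its cluster neighbour Svs3a, also at 0.873.

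**Figure D4:**
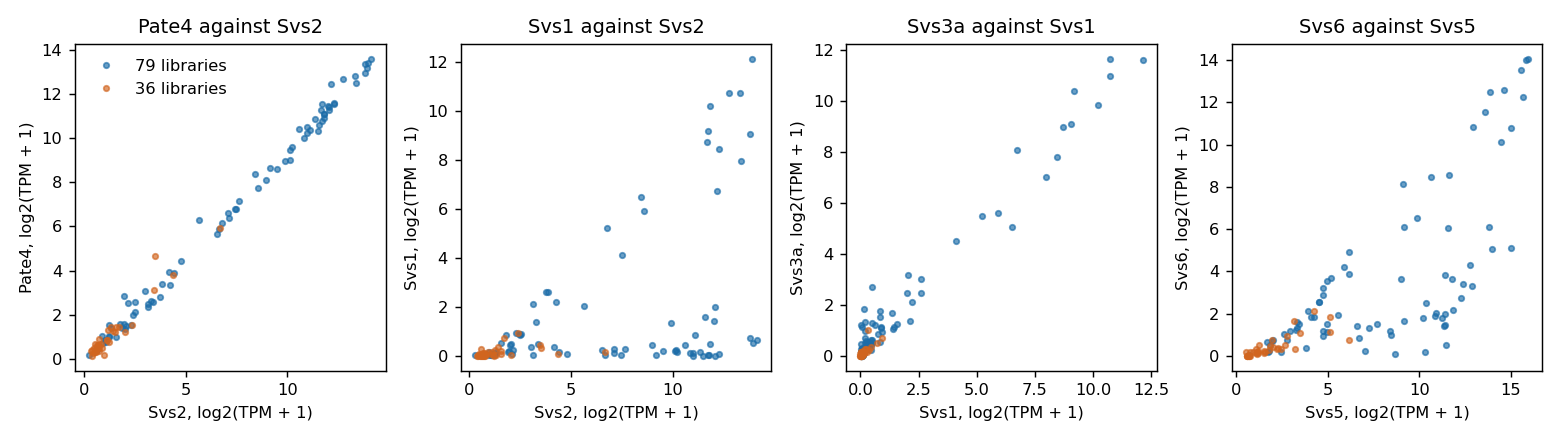
Level of 1 gene against another on the log2(TPM + 1) scale in 4 panels, with 1 point a library, the 79 libraries in blue and the 36 in orange. Pate4 rises with Svs2 along a line and Svs3a rises with Svs1, whereas Svs1 and Svs6 are high in only some of the libraries with high Svs2 or Svs5.

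The ratio of 2 genes within a library does not depend on how the library was scaled, and it was read where both genes were at 1 TPM or more. The ratio of Svs2 to Pate4 had a median of 1.55 and an SD of only 0.43 (log2 scale) over 72 of the 79 libraries, between 0.466 and 2.25. Svs3a to Svs3b had a median of 1.97 and an SD of 0.49 over 23 libraries, and Svs1 to Svs6 a median of 0.176 and an SD of 0.68 over 24. The division of shared reads could by itself steady the ratio of Svs3a to Svs3b. Svs5 to Svs6 ranged from 1.96 to 1537 over 62 libraries, with an SD of 3.20. Svs2 to Svs4 ranged from 0.0391 in library W4495 to 34.01 in library W4403, with an SD of 2.87 over 75 libraries. Not all ratios within a group were steady. Svs2 to Svs5 had an SD of 1.19 over 75 libraries, and Svs3a to Svs6 ranged from 0.0216 to 2.64 over 35, with an SD of 1.31. The largest SD within a group was 1.55, for Svs3b to Svs6. Across the groups, with Svs4 left aside, the smallest was 2.47, for Svs3b to Svs5.

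In the 36 libraries the r of the 28 pairs ran from 0.302 to 0.964, with a median of 0.638, and was highest for Svs2 and Pate4. By the adjusted permutation test of r, 0 of the 28 passed there and 0 of all 116860 pairs with a tested gene, although 26 of the 28 had an unadjusted p under 0.05. By rho, 13 of the 28 passed (permutation test, adjusted p = 0.0344), against 0.0291% of all pairings. The permutations give no p under 1e-05, and where few pairs reach it the adjusted p cannot fall under the threshold, as in the 36 libraries by r (smallest adjusted p = 0.0615) and in the 33 libraries with low Svs2. At most 5 of the 36 libraries had any 1 of the genes at 10 TPM or more.

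Genes beside the cluster were set against it in the same way. Within 500 kb of the cluster the table held 57 other genes, and 26 of them had a mean of at least 1 TPM. Over all 14621 genes that could be tested with Svs4, 210 were correlated with it (1.44%), 178 of them positively (1.22%) and 32 negatively (0.219%). The split was 456 to 221 with median-of-ratios scaling and 283 to 9 with TPM rescaled without the 8 genes. Of the 26 beside the cluster, 1 was correlated with Svs4. That gene was Wfdc15b, a whey acidic protein domain gene at 164214454 to 164221660 next to Svs2, with r = 0.556 with Svs4, 0.553 with Svs2 and 0.331 with Svs1, the last not passing (adjusted p = 0.123). Wfdc10 was correlated with Svs2 (r = 0.439) and not with Svs4 (r = 0.20, adjusted p = 0.422). Ada, at the far end of the window, was correlated with Svs3a (r = 0.411), as were 0.691% of all tested genes, and not with Svs2 (r = 0.015, adjusted p = 0.967). By rho Ada did not pass with Svs3a (rho = 0.292, adjusted p = 0.142). Wfdc6b passed by rho with Svs3a (0.410) and Svs3b (0.463), at adjusted p = 0.0153 and 0.00987 (permutation test). By r, at 0.184 and 0.204, Wfdc6b did not pass with either. Slpi, the protease inhibitor gene on the other side of the cluster next to Svs5, had r = -0.0051 with Svs4, and the median over the 26 was -0.0105, against -0.0438 over all tested genes.

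**Figure D5:**
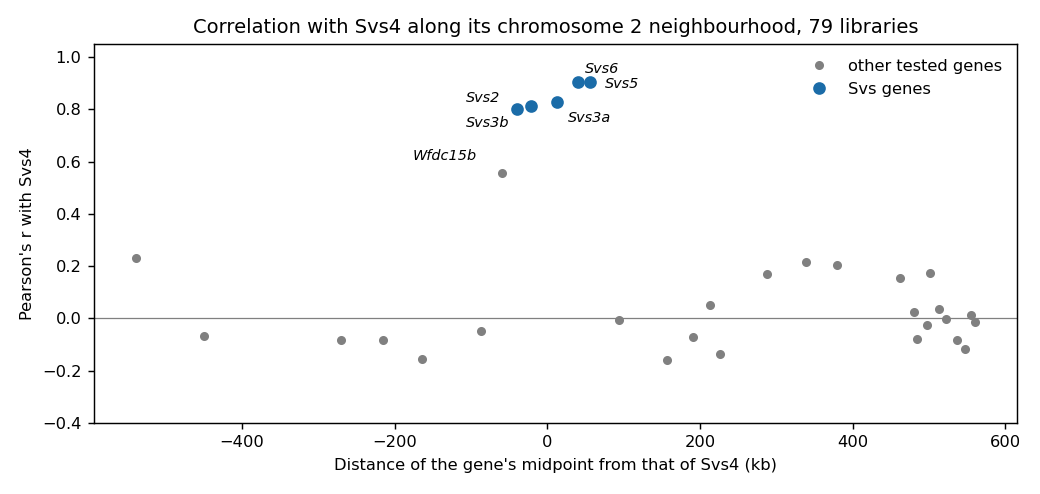
Pearson's r with Svs4 over the 79 libraries (vertical axis) for each tested gene around the cluster, by the distance of its midpoint from that of Svs4 in kb (horizontal axis), with the Svs genes in blue and the other 26 genes in grey. The 5 Svs genes lie between 0.802 and 0.906, Wfdc15b at 0.556 and all others at or under 0.233.

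Several other genes of the seminal vesicle secretion were correlated with the 8. Of a list of 15 genes taken as such, chosen with earlier results of these data known, 8 were tested. With Svs4 5 of them were positively correlated (Sva, Spinkl, Ceacam10, Spink1 and Wfdc15b). With Svs2 6 were, these and Wfdc10, and with Svs1 4, without Wfdc15b. Wfdc10 had r = -0.017 with Svs1. Sva, a seminal vesicle autoantigen, had r = 0.987 with Svs1, 0.798 with Svs4 and 0.440 with Svs2, the last not passing by rho (rho = 0.348, adjusted p = 0.0613). Spinkl, a protease inhibitor-like sperm-binding protein, had r = 0.928, 0.905 and 0.550. Ceacam10, another secreted sperm-binding protein, had r = 0.841, 0.803 and 0.542. Of all tested genes, 0.465% were positively correlated with Svs1, 1.7% with Svs2 and 1.22% with Svs4. Sva and Spinkl had medians of 0.09 and 0.44 TPM over all libraries. They reached 1 TPM in 20 and 41 libraries and passed the filter on the mean through these. The counts therefore describe the list and are not a test of it. The median r of the 8 was 0.494 with Svs4, against -0.0438 over all tested genes, and 0.400 with Svs1, against -0.104.

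Secretory genes of the prostate itself did not follow the 8. Of 7 tested genes of the prostate secretion and copulatory plug list, 0 were correlated with any of the 8, by r or by rho. Tgm4, the enzyme that cross-links the Svs proteins, was at a median of 2963 TPM and had r = 0.081 with Svs2 and -0.083 with Svs1. Defb50 had r = 0.145 with Svs2 and Sbp 0.155. By r, 0 of 8 genes of prostate luminal identity, 8 of proliferation, 8 of smooth muscle and stroma and 4 of immune cells were correlated with any of the 8. By rho some of them passed. Svs3b was positively correlated with the cell cycle genes Cdk1 (rho = 0.394), Mki67 (0.386) and Bub1 (0.359) and with the keratin Krt8 (0.381). By rho 1.9% of all pairings passed as positive. The median of Svs3b was 0.14 TPM, and its r with these genes ran from 0.049 (Krt8) to 0.192 (Bub1). With its near-copy Svs3a none of them passed by rho (permutation test, adjusted p = 0.0542 to 0.0981). The homeobox gene Hoxb13 was negatively correlated with Pate4 (rho = -0.374, r = -0.160) and Svs5 (rho = -0.369, r = -0.149). The median r of the luminal list was -0.157 with Svs2 and -0.183 with Svs1.

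Some markers of neighbouring ducts were correlated with Svs2 and Pate4. Of 13 genes of the epididymis and vas deferens, 3 were tested, and Crisp1 (r = 0.473 with Svs2) and Akr1b7 (r = 0.498) were correlated with Svs2 and with Pate4, as were 1.7% and 1.89% of all tested genes in the positive direction. With Svs1 they had r = -0.065 and 0.018. Over the 79 libraries the summed level of the list ran from 1.23 through a median of 29.3 to 9460 TPM. Over all libraries 9 of the 13 genes, among them the epididymal Lcn5, Lcn8, Lcn9, Cst11 and Defb41, were at 0 in at least 50% and never above 1.5 TPM. Emx2, a regulator of Wolffian duct growth, was the 1 gene of 7 tested on its list to pass by r, with r = 0.605 with Svs2, 0.445 with Svs4 and 0.194 with Svs1 (adjusted p = 0.450), at a highest level of 9.82 TPM. By rho 2 more of the list passed: Pax8, another Wolffian duct regulator, with Pate4 (rho = 0.548), Svs2 (0.535, against r = 0.328) and Svs5 (0.463), and Hoxa13 with Svs3b (0.368). Scg2, of the neuroendocrine list, had r = 0.380 with Svs2 (adjusted p = 0.0285) and was the 1 of 7 to pass by r, while by rho Ncam1 also passed, with Pate4 (rho = 0.375). The part of cells of other glands or ducts in the levels of the 8 genes was not tested.

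Outside the 8 genes, those with the most similar pattern by the median of rho over the 8 were Spinkl (0.779), Sva (0.689), Anxa9 (0.674), Gm11212 (0.648), Dnase2b (0.592), Gm5420 (0.578), Ceacam10 (0.568), Cyp4a12a (0.567), Fam3b (0.564) and D730048I06Rik (0.558), each over 79 libraries. Over all libraries the medians were 0 TPM for Gm11212, 0.05 for Cyp4a12a, 0.06 for Dnase2b and 0.09 for Sva. These genes reached 1 TPM in 17, 35, 12 and 20 libraries, so their rho rests in part on values near 0. The highest median of the 10 was 3.27 TPM, for Ceacam10. Some of the 10 were closer to one group of the 8 than to the other. Dnase2b, a deoxyribonuclease, had rho = 0.735 with Svs3a and 0.346 with Svs2. Cyp4a12a, a fatty acid hydroxylase induced by androgen, had rho = 0.892 with Svs2 and 0.171 with Svs1. Anxa9, an annexin, had rho = 0.741 with Svs4, 0.780 with Svs2 and 0.404 with Svs1.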

How the data were processed

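Total RNA from 115 prostate samples was sequenced after ribosomal RNA depletion. Per the labels, reads were processed with CASAVA 1.8.2, Bowtie2 2.2.5 and RSEM 1.2.20 on GRCm38, and by the study's methods the reads were mapped to an allele-specific transcriptome. The authors deposited TPM, a scale on which every library has the same total, so depth and counting error are unknown and no count test was used. All libraries form 1 group. The study's methods describe fewer prostates than this, no label marks which were meant, and all libraries were used.

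Correlations used log2(TPM + 1) over genes averaging 1 TPM or more, with 100000 permutations and Benjamini-Hochberg adjustment over every pair of 1 of the 8 genes with a tested gene (threshold 0.05). Libraries, or the levels of a gene, were taken as separate sets where fitting 2 normal distributions in place of 1 cut the BIC by more than 10, with Ashman D above 2 and no set smaller than 6. The rule for named genes took the 8 genes, the marker lists, the coding genes within 500 kb of the cluster and the 10 genes with the highest median rho. The 8 genes and the lists were chosen with earlier results of these data known. Positions came from GENCODE M21. Start regions (RefSeq, GRCm38.p6) and transcripts were compared with Biopython 1.88 and BLAST+ 2.17.0. A transcript copy was called near-identical where its longest single match had 95% identity over 80% of the longest transcript. Calculations ran in Python 3.11.15 with scikit-learn 1.9.0, scipy 1.17.1, pandas 2.3.3 and numpy 2.4.6. Scripts were tested on simulated data. Alternatives were another pseudocount, other scalings, rank correlation, no filter, residuals after 3 principal components, the smaller set of libraries, other detection thresholds and leaving out library W78022, whose label is nearly that of W7822.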

Additional observations from a re-analysis of the deposited data

How the results depend on the processing

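All 28 pairs of the 8 genes stayed positively correlated under 8 alternatives (a pseudocount of 0.1, median-of-ratios scaling, TPM rescaled after removal of either the 20 most abundant genes or the 8 genes, Spearman's rho, no filter on low values, residuals after 3 principal components, and without W78022). In the other 36 libraries 0 of 28 passed by r, and so did 0 genes with Svs4 and 0 of the neighbours. There the smallest adjusted p over all pairs was 0.0615 (permutation test), and 1730 genes had an unadjusted p under 0.05 with Svs4.

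The number of genes correlated with Svs4, 210, rose to 677 with median-of-ratios scaling, 481 after rescaling without the 20 most abundant genes, 395 with no filter on low values and 1219 with residuals after 3 principal components, and lay between 189 and 292 under 4 others. The neighbours correlated with Svs4, 1 of 26, became 2 with median-of-ratios scaling and 3 with the residuals. The cause of these changes was not tested. Of the 8 genes, 8 were detected at 0.1 TPM and 2 at 10 TPM, against 5 at 1 TPM.

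No paired analysis was possible because there is only 1 group of libraries. The values keep no depth, so low values cannot be given a counting error. Svs3a and Svs3b share reads. Modes within the 79 libraries were found on the same values as the correlations.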
